A study of Arabidopsis thaliana with 12 samples.

Results

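Short genes, whose loci span under 300 bp in the authors' deposited tables, were 32 of the 1465 genes listed as different between a mutant and wild type Arabidopsis thaliana seedlings. The members were chosen by that span and by being listed, so their presence, direction and size of change are descriptions of the values that chose them. Of the 32, 23 are annotated as small nucleolar RNA (snoRNA) genes and 9 belong to other classes, and 1 further short locus was left out by the rule. Members made up 3 of 471 listed genes for nrpe1, 1 of 617 for swi3b +/- and 28 of 754 for idn2-1. No member was listed in more than 1 table, and all 23 snoRNA genes came from the idn2-1 table. The 471, 617 and 754 listings come from 1465 different genes, so most listed genes of any span were also in 1 table only. The share of all listed genes in 2 or 3 tables was not computed, and the absence of overlap is not read as a trait of short loci.

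RNA was sequenced from whole seedlings grown in long days for 2 to 3 weeks, after depletion of ribosomal RNA from total RNA. There were 12 samples, 3 biological replicates each of nrpe1, swi3b +/- (a heterozygote), idn2-1 and the wild type Col-0. NRPE1 forms the catalytic core of RNA polymerase V, SWI3B belongs to SWI/SNF complexes that remodel chromatin, and IDN2 binds RNA in the pathway of RNA-directed DNA methylation. The sources used here name no further alleles and do not state whether the seedlings of a sample were pooled.

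Each table gives 1 pooled value per genotype in RPKM (read counts divided by transcript length and by library size), the log2 fold change of mutant over Col-0, a p-value and a q-value (a p-value adjusted for the number of tests). No spread between replicates can be computed from them, the read depth is unknown, and every call below is the authors' at q below 0.05. A gene that is not listed in a table is not thereby shown to be unchanged. NRPE1 itself had 1.01 RPKM in nrpe1 and 3.98 RPKM in Col-0 in the authors' deposited table, a log2 fold change of -1.98. SWI3B and IDN2 were not listed in the tables of their mutants, so these labels have no such check. In RNA from whole seedlings, fewer cells of a type and less RNA per cell cannot be told apart.

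SnoRNAs are short stable RNAs of the nucleolus, where ribosomal RNA is made and processed. Those of the C/D class carry a C box near the 5′ end and a D box near the 3′ end, bind fibrillarin together with NOP56 and NOP58, and pair with ribosomal RNA through a stretch that lies just before the D box or an internal copy of it. The pairing places a methyl group on the ribose of a chosen base of the ribosomal RNA. In plants many snoRNA genes lie in short runs that are transcribed together from a shared promoter and then cut into single snoRNAs.

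The sequences below are those of 10 snoRNA genes that the values turn on, read from the RefSeq TAIR10.1 genome (all 23 listed snoRNA loci have the same ends in the tables and in that annotation). Capitals mark a C box (TGATGA) and a D box (CTGA) where a search found them. AT2G35382 had the lowest q of the 23, its neighbour AT2G35384 the highest RPKM and AT1G74456 the largest fold change. AT2G20721 and AT3G21805 carried identical values in the authors' deposited table. AT4G39363, AT4G39364 and AT4G39366 lie side by side and are near copies of each other. AT1G03743 and AT5G44286 lie on different chromosomes and share a long stretch.
AT2G35382 (chr2:14894380-14894455, minus strand): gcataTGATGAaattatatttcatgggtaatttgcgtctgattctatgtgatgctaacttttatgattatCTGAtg
AT2G35384 (chr2:14894549-14894627, minus strand): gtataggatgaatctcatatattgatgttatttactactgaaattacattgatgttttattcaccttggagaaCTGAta
AT1G74456 (chr1:27984745-27984826, minus strand): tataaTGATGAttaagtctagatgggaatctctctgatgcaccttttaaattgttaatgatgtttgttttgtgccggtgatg
AT2G20721 (chr2:8931565-8931655, minus strand): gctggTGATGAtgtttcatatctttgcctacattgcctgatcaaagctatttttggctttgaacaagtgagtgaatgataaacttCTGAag
AT3G21805 (chr3:7682362-7682452, plus strand): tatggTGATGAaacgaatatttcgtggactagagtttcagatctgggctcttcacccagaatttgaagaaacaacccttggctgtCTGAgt
AT4G39363 (chr4:18305256-18305375, plus strand): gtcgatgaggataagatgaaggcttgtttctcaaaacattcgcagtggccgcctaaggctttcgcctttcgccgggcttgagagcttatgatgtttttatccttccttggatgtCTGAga
AT4G39364 (chr4:18305415-18305536, plus strand): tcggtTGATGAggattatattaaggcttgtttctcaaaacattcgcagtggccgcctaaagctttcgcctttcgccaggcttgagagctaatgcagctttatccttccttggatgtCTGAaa
AT4G39366 (chr4:18305585-18305704, plus strand): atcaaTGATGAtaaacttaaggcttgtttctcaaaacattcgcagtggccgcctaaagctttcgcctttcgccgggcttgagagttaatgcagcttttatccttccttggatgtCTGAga
AT1G03743 (chr1:937207-937287, minus strand): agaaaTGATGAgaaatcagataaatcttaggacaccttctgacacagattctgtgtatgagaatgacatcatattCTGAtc
AT5G44286 (chr5:17840220-17840304, plus strand): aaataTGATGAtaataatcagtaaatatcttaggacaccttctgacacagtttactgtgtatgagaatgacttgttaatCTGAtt

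The C box was searched within the first 15 bases and the D box within the last 14. Of the 23 listed snoRNA genes 20 had the C box, always starting at base 6, and 22 had the D box. Both boxes were found in 19 of the 23 (82.6%), against 31 of the 42 other annotated snoRNA genes with an older name (73.8%) and 101 of all 264 other annotated snoRNA genes (38.3%). AT1G74456, the gene with the largest fold change, lacked a D box in this window, and AT2G35384, AT4G39363 and SNOR108 lacked the C box. An ACA triplet at the 3′ end, which marks the H/ACA class that guides pseudouridylation, was found in 0 of the 23, in 1 of the 42 others with an older name and in 52 of all 264 others. A protein-coding gene overlapped 0 of the 23 listed loci, against 9 of the 42 others with an older name (21.4%) and 31.8% of all 264 others. AT3G24612 and AT5G13225 overlapped annotated long non-coding RNAs on the same strand, with which they can share reads.

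In idn2-1 all 23 listed snoRNA genes were higher than in Col-0. Their fold changes lay between 2.05 and 5.95 with a median log2 fold change of 1.27, and their RPKM in the authors' deposited table were among the highest of any listed gene. The authors listed 3.18% of 27755 tested features in this comparison, 1.24% as higher and 1.95% as lower. Among the 28 short loci 26 were higher and 2 lower (92.9% higher), against 294 higher and 431 lower of the 725 listed genes of 300 bp or more (40.6% higher). The median log2 fold change was 1.27 over the 25 short loci with both values above 0, and -0.99 over the longer listed genes. Since the rule used this contrast, these shares describe the members and are no test of them.

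The snoRNA values spanned 732 to 57313 RPKM in idn2-1 (median 11987) and 262 to 23695 RPKM in Col-0 (median 4962) in the authors' deposited table. Every gene was higher in idn2-1 than in Col-0, although the ranges of the 2 genotypes across genes overlap. The highest value among the longer listed genes of that table was 1163 RPKM in idn2-1 and 3795 RPKM in Col-0, and 22 of the 23 snoRNA genes exceeded it in idn2-1 (all but AT4G39366) and 16 of the 23 in Col-0. The snoRNA loci span 74 to 122 bp (median 85). By the steps described below, mostly from pairs of loci, RPKM at such spans changed more steeply than plain length does. Levels are therefore compared here on the authors' RPKM scale only, and how far that scale raises short loci over longer genes was not tested.

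**Figure D1:**
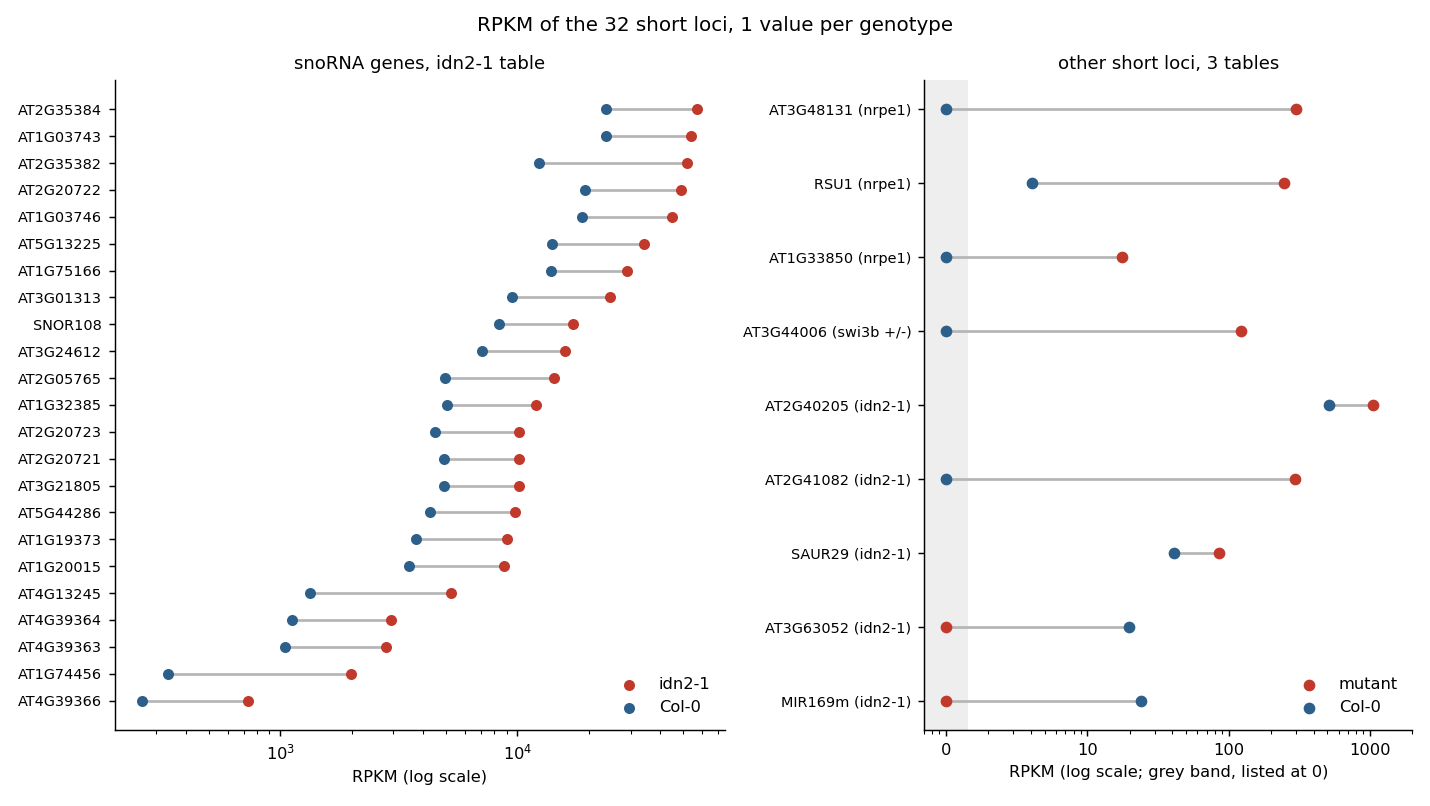
RPKM of the 32 short loci on log scales, 1 pooled value per genotype and gene, with mutants in red and Col-0 in blue; the left panel holds the 23 snoRNA genes of the idn2-1 table and the right panel the 9 other loci with the table they come from. All 23 snoRNA genes lie higher in idn2-1, by similar distances on the log scale apart from AT2G35382, AT4G13245 and AT1G74456, and 6 of the 9 other loci are at 0 in 1 genotype (grey band).

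The largest fold change among the 23 was that of AT1G74456. It had 1990 RPKM in idn2-1 and 335 RPKM in Col-0 in the authors' deposited table, 5.95 times as much, with a q of 0.0375 that lies close to the threshold. A sequence 95.3% identical to 51.2% of the length of AT1G74456 lies where AT1G18745 and AT1G05423 are annotated, so its reads may be shared. AT2G35382 had 52055 RPKM in idn2-1 and 12319 RPKM in Col-0 in the authors' deposited table (log2 fold change 2.08, q = 3.95e-09). AT4G13245 had 5247 RPKM in idn2-1 and 1339 RPKM in Col-0 in the authors' deposited table (log2 fold change 1.97, q = 0.000902). These were the 3 snoRNA genes with a fold change above 3. AT2G05765, with 14300 RPKM in idn2-1 and 4962 RPKM in Col-0 in the authors' deposited table, followed at a log2 fold change of 1.53, with an unlisted near copy, AT2G17295, that may share its reads. AT4G39366 came next, with 732 RPKM in idn2-1 and 262 RPKM in Col-0 in the authors' deposited table and a log2 fold change of 1.48. The remaining 18 genes had log2 fold changes between 1.04 and 1.41.

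The 2 snoRNA genes with the highest RPKM lay near the middle of the fold changes. Their rank by level holds for RPKM only, since their spans differ from those of other genes. AT2G35384 had 57313 RPKM in idn2-1 and 23695 RPKM in Col-0 in the authors' deposited table (2.42 times). AT1G03743 had 54151 RPKM in idn2-1 and 23682 RPKM in Col-0 in the authors' deposited table (2.29 times). AT2G20723 lay at the other end of the evidence: with 10139 RPKM in idn2-1 and 4470 RPKM in Col-0 in the authors' deposited table it had a q of 0.0499, the largest in that table. The smallest fold change was that of SNOR108 (AT5G41471), with 17127 RPKM in idn2-1 and 8355 RPKM in Col-0 in the authors' deposited table (2.05 times, q = 0.0153).

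AT2G20721 on chromosome 2 and AT3G21805 on chromosome 3 had the same values to the last printed digit. Both are given with 10120 RPKM in idn2-1 and 4914 RPKM in Col-0 in the authors' deposited table, a log2 fold change of 1.04 and a q of 0.0305. Among features above 0 in both genotypes they were the only 2 in any of the 3 tables that share both RPKM values, the p-value and the q-value. Both loci span 91 bp, but their sequences are not copies. They were 59.3% identical, as the median of all 253 pairs of the 23 genes (59.3%), and the longest stretch they share is 9 bases.

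Loci of equal span in the idn2-1 table, transposable elements among them, were compared within each genotype. Their RPKM values could be written as whole multiples of a single step, within the rounding of 6 printed digits. Multiples up to 1000 were searched, so a pair of values can meet this without sharing a true step. Only the span of 85 bp held more than a pair (AT1G03746, AT1G32385 and AT5G44286). Whether the steps arose from the search was not tested. At 79 bp, AT2G05765 was at 128 steps in idn2-1 and 49 steps in Col-0, and AT2G35384 at 513 steps in idn2-1 and 234 steps in Col-0, where 1 step was 111.7 RPKM in idn2-1 and 101.3 RPKM in Col-0. At 87 bp 1 step was 65.9 RPKM in idn2-1 and 62.6 RPKM in Col-0. The step was thus 1.70 times as large at 79 bp as at 87 bp in idn2-1 and 1.62 times in Col-0, although the span differs by a factor of only 1.10. The step in idn2-1 was also larger than that in Col-0, by a factor of 1.10 at 79 bp and 1.05 at 87 bp, and the RPKM fold change is larger than the ratio of steps by that factor. The sources used here do not state what a step stands for.

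At spans of 76 and 82 bp the step was chosen by a curve through 79 to 87 bp, extended to 76 bp. By this curve AT2G35382 was at 370 steps in idn2-1 and 99 steps in Col-0, and AT4G13245 at 58 steps in idn2-1 and 16 steps in Col-0. AT1G74456, the gene with the largest fold change, was at 22 steps in idn2-1 and 4 steps in Col-0, the fewest of any snoRNA gene with an assigned step. By steps AT1G03746, at 605 steps in idn2-1 and 267 steps in Col-0, stood above AT2G35384 and above AT1G03743, at 559 steps in idn2-1 and 266 steps in Col-0, so the order of levels by RPKM and by steps differs. No whole number of steps could be fixed for the identical pair, whose span of 91 bp lies beyond the curve and which gives only 1 value per genotype. Spans shared by several loci covered 17 of the 23 snoRNA genes, of which AT4G39363 and AT4G39366 (120 bp) had a ratio of multiples only, 186 to 49 in idn2-1 and 4 to 1 in Col-0.

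**Figure D2:**
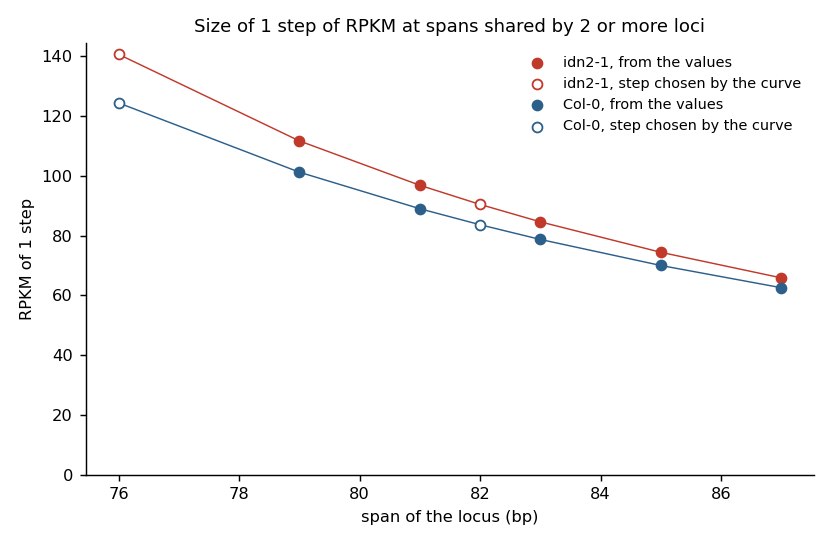
RPKM of 1 step (vertical axis) against the span of the locus in bp (horizontal axis) for idn2-1 in red and Col-0 in blue; filled points come from the values alone and open points from the multiple that lies nearest a curve through the filled ones. The step falls from 111.7 RPKM at 79 bp to 65.9 RPKM at 87 bp in idn2-1, and idn2-1 lies above Col-0 at every span.

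The direction of change in the idn2-1 table also varied with span outside the short loci. Of listed genes from 300 to under 600 bp 73.3% were higher in idn2-1 (30 genes), and 74.2% from 600 to under 1000 bp (93 genes). The share was 53.4% from 1000 to under 2000 bp (189 genes), 29.5% from 2000 to under 4000 bp (254 genes) and 17.0% from 4000 bp (159 genes). In nrpe1 the same classes of 300 bp or more held between 41.7% and 65.2% higher genes, without a steady fall. In swi3b +/- they held 86.7%, 87.7%, 83.9%, 74.4% and 63.5% in order of span. A lower share among the longest genes was thus not particular to idn2-1, although the fall was larger there. The part of transcript length in the higher snoRNA values of idn2-1 was not tested.

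**Figure D3:**
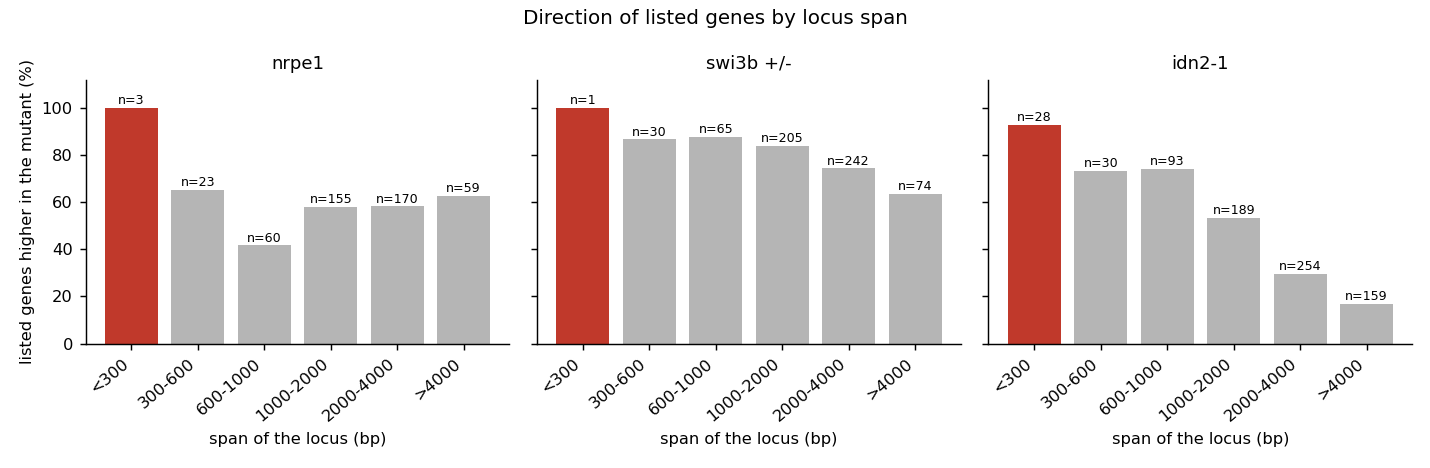
Share of listed genes that are higher in the mutant (percent) by span of the locus in bp, 1 panel per mutant, with the number of genes above each bar and the short loci in red. In idn2-1 the share falls from 92.9% under 300 bp to 17.0% from 4000 bp. In swi3b +/- it falls less, from 86.7% at 300 to under 600 bp to 63.5% from 4000 bp. In nrpe1 it lies between 41.7% and 65.2% for the classes of 300 bp or more.

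**Figure D4:**
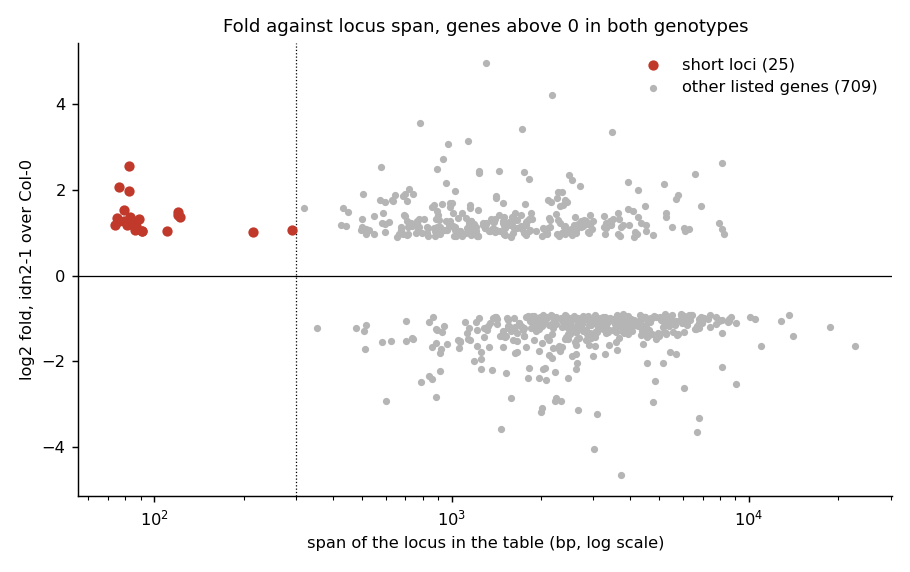
Log2 fold change of idn2-1 over Col-0 against the span of the locus (bp, log scale) for listed genes above 0 in both genotypes, with the 25 short loci in red and longer genes in grey; the dotted line marks 300 bp. The 25 short loci all lie between 1.03 and 2.57, above the zero line, while longer genes lie on both sides.

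The 23 genes are part of a larger annotated family. Of 287 annotated snoRNA genes 65 carry an older name beside their locus identifier, and all 23 listed genes are among these 65, which makes 35.4% of the 65 and 8.01% of the 287. The sources used here do not state whether the authors' annotation held the other snoRNA genes, so the denominator of the second share is uncertain. The nrpe1 and swi3b +/- tables listed 0 snoRNA genes. In those comparisons the authors listed 1.88% of 27012 features for nrpe1 (1.04% higher, 0.848% lower) and 2.43% of 25877 for swi3b +/- (1.87% higher, 0.556% lower). Col-0 does not carry the same values in all tables. For AT1G69140 it had 199 RPKM in the idn2-1 table and 233 RPKM in the nrpe1 and swi3b +/- tables. For TCH3 (AT2G41100) these values were 161 and 188 RPKM, and the sources used here do not state why. A difference between mutants in snoRNA levels was not tested. Other short RNA classes were sparse in the idn2-1 table, which listed 3.18% of all tested features. It listed 0 of 625 annotated transfer RNA genes and 4 of 326 annotated microRNA genes, 1 of the 4 as a short locus. Whether the authors tested all of these annotated genes is not stated either.

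Most of the listed snoRNA genes lie in runs, here taken as annotated snoRNA genes on 1 strand with gaps of at most 500 bp. The 23 genes fell into 14 runs, which held 20 of them, and 3 single genes (AT1G20015, SNOR108 and AT5G13225). Together these runs and single genes hold 47 annotated snoRNA genes, 29 of them with an older name. Of these 29, 6 were not listed, namely AT1G19376, AT1G75163, AT1G74453, AT2G35387, AT3G01316 and AT4G39361. Of the listed genes 87.0% lie in a run, against 88.1% of the other 42 genes with an older name.

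In 4 of the 14 runs 2 or more genes were listed, so their values can be set side by side. In the run of AT2G20721, AT2G20722 and AT2G20723 all 3 genes were listed, with log2 fold changes of 1.04, 1.35 and 1.18 in the authors' deposited table. The middle gene, AT2G20722, stood at 49169 RPKM in idn2-1 and 19267 RPKM in Col-0 in the authors' deposited table, well above both neighbours, which stood at 10139 RPKM (AT2G20723) and 10120 RPKM (AT2G20721) in idn2-1. AT1G03743 and AT1G03746, 114 bp apart, had log2 fold changes of 1.19 and 1.27 in the authors' deposited table. Like fold changes were not particular to neighbours, since 18 of all 23 genes lay between 1.04 and 1.41. AT2G35382 and AT2G35384, 94 bp apart, had log2 fold changes of 2.08 and 1.27 in the authors' deposited table, the widest gap within any of the 4 runs. Their levels were close in idn2-1, at 52055 and 57313 RPKM, and not in Col-0, at 12319 and 23695 RPKM, in the authors' deposited table.

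**Figure D5:**
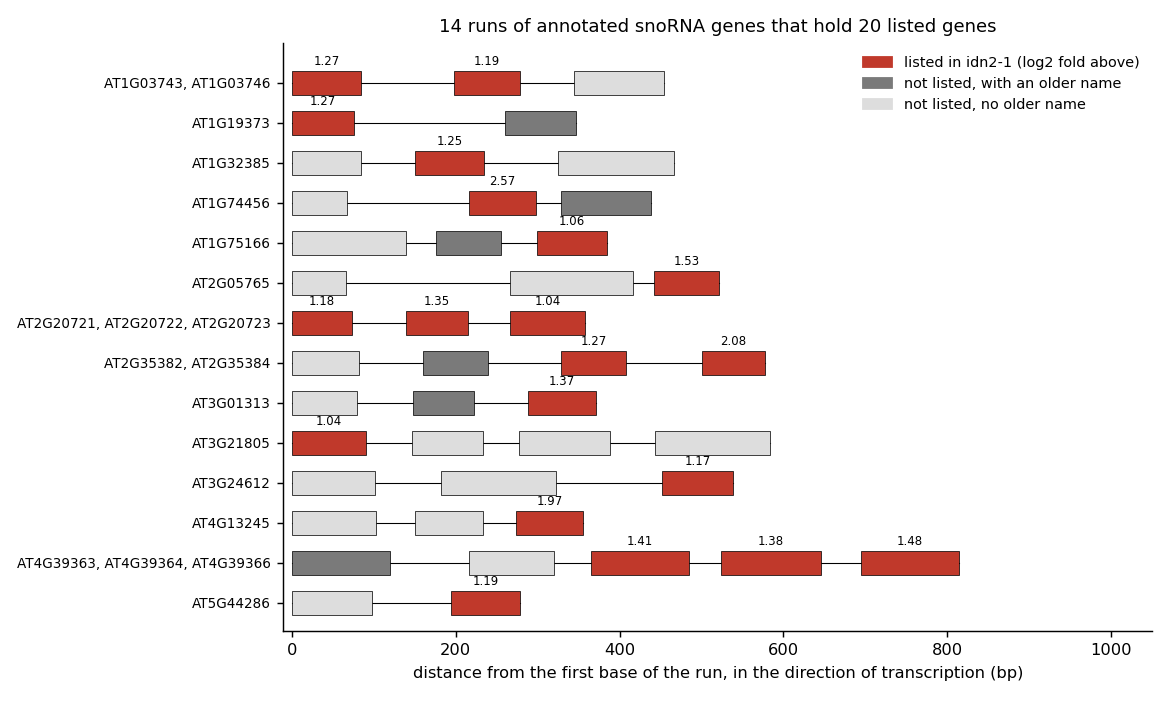
The 14 runs of annotated snoRNA genes that hold 20 of the listed genes, drawn to scale by distance in bp from the first base of the run in the direction of transcription; red boxes are listed genes with their log2 fold change (idn2-1 over Col-0) above, dark grey boxes unlisted genes with an older name and light grey boxes unlisted genes without one. In 10 of the runs only 1 gene is listed; among the 4 others the widest gap in fold change is that of AT2G35382 (2.08) and AT2G35384 (1.27).

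The run of AT4G39363, AT4G39364 and AT4G39366 holds near copies, printed above. AT4G39364 and AT4G39366 were 90.2% identical, AT4G39363 and AT4G39366 90%, and AT4G39363 and AT4G39364 88.5%. Their levels were 2779, 2927 and 732 RPKM in idn2-1, against 1047, 1124 and 262 RPKM in Col-0, in the authors' deposited table. The log2 fold changes of 1.41, 1.38 and 1.48 were thus close although AT4G39366 stood far below the others. Reads that match more than 1 of the copies could have been divided among them by the authors' counting, so these levels are uncertain. The same holds for AT1G03743 and AT5G44286, which were 83.5% identical and share 24 bases in a row (atcttaggacaccttctgacacag), and for AT3G24612 and AT4G13245, which were 82.8% identical. Copies that were not listed were as close for some genes: AT4G39366 was 91.7% identical to AT4G39361, AT2G05765 90% to AT2G17295 and AT1G75166 89.7% to AT1G19376. AT3G21805, of the pair with identical values, was 84.4% identical to the unlisted AT4G06240, and SNOR108 80.9% to the unlisted AT1G29071. The levels of these listed genes carry the same limit. AT3G24612 had a log2 fold change of 1.17 and AT4G13245 one of 1.97 in the authors' deposited table. The 5 pairs of listed genes named here were the only ones of 253 with an identity of 80% or more.

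Stretches complementary to ribosomal RNA were searched in the 18S rRNA gene AT2G01010 and in 3800 bases after AT2G01020, the annotated rRNA gene that follows it on chromosome 2. An exact complement of 12 bases or more was found in 14 of the 23 listed genes (60.9%) and in 80 of the 264 other annotated snoRNA genes (30.3%). The groups differ in class: 52 of the 264 have an ACA end, and 38.3% of the 264 have both boxes, against 82.6% of the 23. The share among the 42 others with an older name was not computed. The 3 copies AT4G39363, AT4G39364 and AT4G39366 each carry a 14-base complement to bases 414 to 427 of the 18S gene, directly before the D box. AT1G32385 and AT2G35384 carry the same 13-base complement to bases 2045 to 2057 after AT2G01020, 1 base before the D box. AT2G35382 and AT1G32385 share a 13-base complement to bases 437 to 449 of the 18S gene, and AT1G03743 and AT5G44286 a 14-base complement to bases 2836 to 2849 after AT2G01020. The stretches are given here with the genes that carry them, and each can be found in at least 1 of the sequences printed above.
AT4G39363, AT4G39364 and AT4G39366: ccttccttggatgt
AT1G32385 and AT2G35384: ttcaccttggaga
AT2G35382 and AT1G32385: tgggtaatttgcg
AT1G03743 and AT5G44286: atcttaggacacct
A complement describes the letters only and shows no pairing in these seedlings.

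Windows from 250 bases before to 50 bases after the first annotated base of each run or single gene were searched on both strands for the telo-box (AAACCCTA) and the site II elements TGGGCC and TGGGCT, motifs known from plant promoters of ribosomal protein and snoRNA genes. The first gene of a run need not be a listed gene itself. The telo-box was found in 14 of the 17 windows of runs or single genes with a listed gene (82.4%). It was found in 10 of 25 windows of other runs that hold a gene with an older name (40%). It was present in 36.5% of all 126 other snoRNA windows and in 6.22% of the windows of 27443 protein-coding genes. A telo-box together with a site II element was found in 8 of the 17 windows (47.1%), in 16% of the 25, in 16.7% of the other 126 and in 2.20% of the protein-coding windows. TGGGCC was in 23.5% of the 17 windows, below the 32% of the 25 windows of other runs that hold a gene with an older name and above the 15.9% of the other 126. TGGGCT was in 41.2% of the 17 windows, 20% of those 25 and 19.0% of the other 126. One window is shown because the single gene AT1G20015, with 8795 RPKM in idn2-1 and 3484 RPKM in Col-0 in the authors' deposited table (log2 fold change 1.34), has both kinds of motif, which stand in capitals.
AT1G20015 window (TAIR10.1, chr1:6941035-6941334, plus strand): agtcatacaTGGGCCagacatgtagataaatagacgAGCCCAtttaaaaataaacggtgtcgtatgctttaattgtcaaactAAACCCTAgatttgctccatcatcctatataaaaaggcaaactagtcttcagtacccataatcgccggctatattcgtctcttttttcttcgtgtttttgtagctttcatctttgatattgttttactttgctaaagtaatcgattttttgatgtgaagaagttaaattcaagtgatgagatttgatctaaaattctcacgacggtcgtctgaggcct
The matches are descriptions of these windows, and a window without a motif says nothing of the factors that act there. The snoRNA groups also differ otherwise. A protein-coding gene overlapped 0 of the 23 listed loci, 21.4% of the 42 others with an older name and 31.8% of all 264 others. Whether this or the high RPKM of the listed genes bears on the motif shares was not tested.

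Genes for the proteins that assemble with snoRNAs or process small RNAs were taken as a list of 29 genes, which includes FIB1, FIB2, NOP56, both NOP58 genes, NAP57, GAR1, the exosome factors RRP6L1 and RRP44A, and DCL1. The nrpe1 and swi3b +/- tables listed 0 of the 29, where 1.88% and 2.43% of all features were listed. The idn2-1 table, which listed 3.18% of all features, listed 1 of the 29, a share near that background. The gene was EMB2777 (AT2G43650), a member of the Sas10 family of U3 ribonucleoprotein components. It had 11.03 RPKM in idn2-1 and 22.7 RPKM in Col-0 in the authors' deposited table, a log2 fold change of -1.04 (q = 0.0144).

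The 5 other short loci of the idn2-1 table stood below most of the snoRNA genes in RPKM. AT2G40205, a gene of the ribosomal protein L41 family, had 1046 RPKM in idn2-1 and 512 RPKM in Col-0 in the authors' deposited table (log2 fold change 1.03, q = 0.0170). Its locus has 7 other matches in the genome, the best in AT3G08520, 87.5% identical over 44.7% of the length. SAUR29 (AT3G03820), of the small auxin up RNA family, had 85.9 RPKM in idn2-1 and 41.2 RPKM in Col-0 in the authors' deposited table (2.09 times, q = 0.0415). The genome holds a sequence 86.3% identical to the SAUR29 locus in AT3G03840, with which reads may be shared.

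AT2G41082, which encodes an uncharacterized protein, was listed with 294 RPKM in idn2-1 and at 0 in Col-0 in the authors' deposited table (q = 0.0216). Its table locus spans 105 bp, and 77.1% of that length is 89.4% identical to a part of TCH3 (AT2G41100), a calmodulin-like gene induced by touch that lies 2900 bp away. TCH3 itself had 381 RPKM in idn2-1 and 161 RPKM in Col-0 in the authors' deposited table, 2.37 times as much. TCH3 was also listed as higher in nrpe1 (log2 fold change 0.754) and in swi3b +/- (0.730), where AT2G41082 was not listed. Whether reads of TCH3 were counted at AT2G41082 was not tested. AT2G41080, only 232 bp from AT2G41082, was lower, with 3.39 RPKM in idn2-1 and 8.15 RPKM in Col-0 in the authors' deposited table.

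Lower values in idn2-1 were listed for MIR169m and AT3G63052. MIR169m (AT3G26818) encodes a precursor of miR169, a microRNA known to target transcripts of NF-YA transcription factors. It was at 0 in idn2-1 and at 23.8 RPKM in Col-0 in the authors' deposited table (q = 0.0104). The value is that of the 212-bp precursor locus. The mature sequence lies at chr3:9878318-9878338 on the minus strand, and capitals mark its seed, bases 2 to 8.
miR169m: uAGCCAAGgaugacuugccug
The same mature sequence is annotated at 7 loci, MIR169h to MIR169n, and the same seed at 10. A sequence 91.1% identical to the whole MIR169m locus lies in AT3G26812, so reads of the precursors may be shared. AT3G63052, which encodes an uncharacterized protein, was at 0 in idn2-1 and at 19.8 RPKM in Col-0 in the authors' deposited table (q = 0.0445). A sequence 87.5% identical to the whole AT3G63052 locus lies in AT2G00670, so its reads may be shared too.

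The 3 short loci of the nrpe1 table were all higher in nrpe1, and none was a snoRNA gene. RSU1 (AT3G48130), a transcribed pseudogene related to ribosomal protein L13, had 247 RPKM in nrpe1 and 4.05 RPKM in Col-0 in the authors' deposited table, 60.9 times as much (q = 0.00563). AT3G48131, annotated as an uncharacterized protein on the same strand, had 302 RPKM in nrpe1 and was at 0 in Col-0 in the authors' deposited table (q = 9.00e-05). The table loci of RSU1 and AT3G48131 lie 328 bp apart, but the annotated span of RSU1 covers 699 bp and overlaps AT3G48131. Whether the 2 loci belong to 1 transcript was not tested, so they are not independent of each other.

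AT1G33850, of the ribosomal protein S19 family, had 17.7 RPKM in nrpe1 and was at 0 in Col-0 in the authors' deposited table (q = 0.000137). A sequence 96.3% identical to the whole locus lies in AT5G43640, so its reads may be shared. The nearest listed gene, AT1G33840 at 2607 bp, was also higher, with 27.9 RPKM in nrpe1 and 0.656 RPKM in Col-0 in the authors' deposited table (42.5 times).

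The only short locus of the swi3b +/- table was AT3G44006, which encodes an uncharacterized protein. It had 122 RPKM in swi3b +/- and was at 0 in Col-0 in the authors' deposited table (q = 2.73e-05). Its table locus spans 180 bp of an annotated gene of 705 bp. In all, 4 loci were at 0 in Col-0 and 2 at 0 in idn2-1, and no fold change is given for them.

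The span threshold separated SAUR29 at 291 bp and AT1G33850 at 298 bp, the longest members, from AT5G18150 at 318 bp and AT1G69140 at 353 bp, the next longer listed genes. AT5G18150 had 134 RPKM in idn2-1 and 44.5 RPKM in Col-0 in the authors' deposited table (3.02 times). AT1G69140, a transcribed pseudogene, had 109 RPKM in nrpe1 and 233 RPKM in Col-0 in the authors' deposited table (log2 fold change -1.10). It was also lower in swi3b +/- (log2 fold change -1.21) and in idn2-1 (-1.22) in the authors' deposited tables. The members, like most listed genes of any span, were each in 1 table only. The table loci of 6 of the 9 other short genes differ from the annotated gene ends, so the rule takes genes by the span the authors gave and not by the annotated length.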

How the data were processed

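The authors' deposited tables hold, per the file headers, a locus, an RPKM value for Col-0 and for the mutant, a log2 fold change, a p-value and a q-value. Per the submitters' processing notes, TopHat, Cufflinks and the TAIR10 genome were used, with no versions given, and the sources used here do not state how replicates were combined or tests made. Each table holds 1 pooled value per genotype, so no model was fitted and no gene was tested anew. All columns were mapped (0 left over). Depth is unknown, so no counting interval is given. The sources used here do not state whether strand was kept, so overlapping genes may share reads.

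From the deposited values, spans, fold changes, medians and counts were computed with Python 3.11.15, pandas 2.3.3 and numpy 2.4.6. How many features were tested was solved for each table from the Benjamini-Hochberg formula, a step tested on simulated data. Gene classes, ends and sequences came from RefSeq TAIR10.1, and near copies from BLAST+ 2.17.0. The members and the lists were chosen with earlier results of these data known. Every member could be named; full values went to members that share values, are at 0, have the largest changes or highest RPKM, or are no snoRNA genes, with the genes at the span threshold, listed partner genes and listed neighbours. Neighbours that do not overlap a member, TCH3 among them, were named after their values were seen.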

Additional observations from a re-analysis of the deposited data

How the results depend on the processing

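No paired analysis was possible because the tables hold 1 pooled value per genotype, and for the same reason no replicate could be left out. Of the alternatives tried, none reversed the direction of a median, and no alternative median was computed for swi3b +/-. Most of them keep a part of the same listed loci, nearly all higher, so a reversal could hardly arise. In nrpe1 the count of 3 short loci became 5 at a span under 400 bp (4 higher, 1 lower, with AT1G59930 and AT1G69140 added). It became 1 (RSU1) where both genotypes had to be above 0. The median log2 fold change of 5.93, which is the value of RSU1 alone, became 5.62 with 1 RPKM added and 2.41 at a span under 400 bp. The value of 2.41 is only the midpoint between RSU1 and AT1G69140 (-1.10), as the other loci were at 0 in 1 genotype. With 1 RPKM added the medians took in members at 0, which the other medians left out. In swi3b +/- the count of 1 became 2 at a span under 400 bp (1 higher, 1 lower, with AT1G69140 added). It became 0 by annotated gene length and 0 where both genotypes had to be above 0. The median of the member had no value, since Col-0 was at 0, and alternatives to it were left out. The added AT1G69140 went the other way, with a log2 fold change of -1.21. In idn2-1 the count of 28 became 14 at q below 0.01, all higher, and 1, AT2G35382, with a Bonferroni adjustment. Its median of 1.27 was 1.27 with 1 RPKM added, 1.27 at a span under 200 bp, 1.27 with identical values counted once and 1.34 at q below 0.01. The other alternatives left each count within 1.5 times of its value and each median unchanged. Values at 0, an unknown depth and the absence of replicate values limit what the tables can show for single short loci.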

Other observations

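Short loci that are transposable elements, with element identifiers and so outside the gene rule, went the other way in idn2-1. All 4 such elements under 300 bp were lower in the authors' deposited table, and none overlaps an annotated gene. That direction was not particular to short elements. The table listed 540 features as lower and 343 as higher, among them 434 lower and 320 higher genes. Most listed features other than genes were therefore lower too. AT5TE72360 had 198 RPKM in idn2-1 and 7136 RPKM in Col-0 in the authors' deposited table, 36.1 times lower in idn2-1 (q = 7.00e-07). AT5TE79650 had 23.9 RPKM in idn2-1 and 518 RPKM in Col-0 in the authors' deposited table (21.7 times lower). AT2TE51495 had 194 RPKM in idn2-1 and 2048 RPKM in Col-0 in the authors' deposited table (10.6 times lower). AT1TE57985 was at 0 in idn2-1 and at 7171 RPKM in Col-0 in the authors' deposited table (q = 0.00695).

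In units of the step of RPKM at their span, AT2TE51495 was at 2 steps in idn2-1 and 23 steps in Col-0, and AT5TE72360 at 3 steps in idn2-1 and 114 steps in Col-0. AT1G03743, the snoRNA gene of the same span as AT2TE51495, was at 559 steps in idn2-1 and 266 steps in Col-0.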
